A study of Mus musculus with 2 samples.

Results

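The genes described here are 10 long noncoding RNAs of the mouse uterus, taken by symbol from the deposited expression tables of a Mettl14 study. They are the nuclear RNAs Neat1 and Malat1 and 8 host genes of small nucleolar RNAs (snoRNAs), namely Gas5, Snhg1, Snhg3, Snhg5, Snhg6, Snhg8, Snhg12 and Epb41l4aos. All 10 were found among 55363 genes, each as a single row, and all 10 were among the 16263 genes that reached 1 FPKM in at least one library. FPKM divides the sequenced fragments of a gene by its length and by the size of the library. Levels can thus be set side by side between genes whose RNAs are captured equally well. The whole uterus was taken on gestational day 4, counted from the plug as day 1, from females aged 6 to 8 weeks that were mated with fertile males. The control library is labelled f/f for Mettl14, the usual notation for floxed alleles, and the other is labelled d/d, the notation for alleles deleted by recombination. The Cre driver that deleted the gene, the number of animals in each library and the strandedness of the reads are not stated in the labels. There was 1 library per genotype, so the differences below have no replicate check and no test, and higher or lower below is said of one library against the other.

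Long noncoding RNAs of this kind are made by RNA polymerase II and spliced or processed like messenger RNAs, and several of them act in the nucleus. Neat1 is the scaffold of paraspeckles, nuclear bodies that hold RNA-binding proteins, and mice without it show corpus luteum defects and reduced fertility. Malat1 is an abundant RNA of nuclear speckles, where splicing factors gather, and mice without it develop normally. A snoRNA host is a gene whose introns carry snoRNAs, guide RNAs that direct 2′-O-methylation (box C/D class) or pseudouridylation (box H/ACA class) of ribosomal RNA, while the spliced exons of many noncoding hosts are removed by nonsense-mediated decay. Mettl14 pairs with the methyltransferase Mettl3 to place N6-methyladenosine (m6A) on RNA, a mark known from human MALAT1 among many other RNAs. Methylation of the RNAs was not analysed here.

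As a check of the labels, Mettl14 had an FPKM of 13.6 in f/f and was 4.25-fold lower in d/d, at 3.21. Read depth, estimated from the steps between low FPKM values, was about 17750000 fragments in the f/f library and 20650000 in the other. At that depth the members were covered by at least roughly 170 fragments, the value for Neat1 in d/d if all of it came from the shortest annotated transcript. Intervals given below as counting error use that shortest transcript and cover counting error only. They leave out the variation between animals and the way Cufflinks shares fragments between transcripts.

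Most of the 10 RNAs were lower in the d/d library. Of the 10 members, 9 had a log2 ratio below 0 and Snhg6 alone was above it, against 50.8% of all 16263 genes below 0. On the log2 scale of FPKM + 1, 3 members were at least 2-fold lower in d/d, against 8.28% of all genes, and 0 were at least 2-fold higher, against 10.2% of all genes. The 3 were Neat1, Snhg1 and Snhg12. After rescaling to the 12 reference genes 1 of the 10, Neat1, was at least 2-fold lower, against 7.54% of all genes, so that this count was near the background, while 9 stayed below 0 against 45.3% of all genes. The median log2 ratio of the 10 was -0.57, and that of all genes was -0.01.

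**Figure D1:**
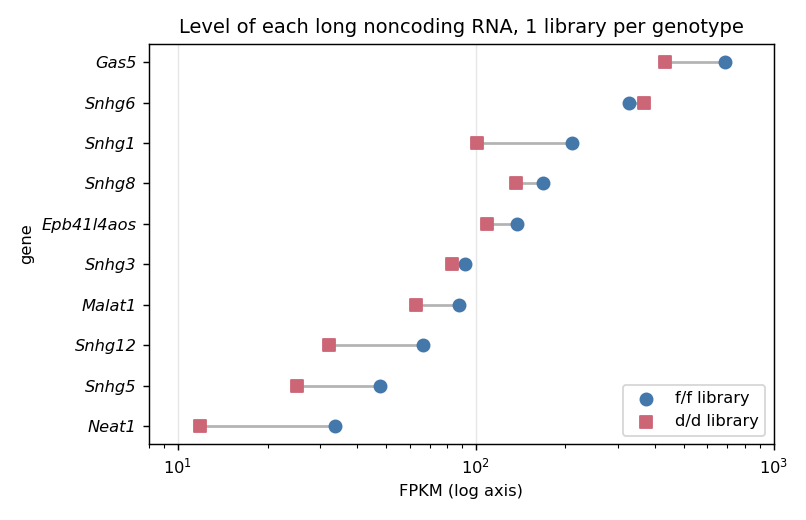
FPKM on a log axis for each of the 10 long noncoding RNAs, with a circle for the f/f library and a square for the d/d library joined by a line. The square lies to the left of the circle for 9 genes and to the right for Snhg6, and the longest line is that of Neat1, from 33.7 to 11.9 FPKM.

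Neat1 differed more than any other member. It was 33.7 FPKM in f/f and 11.9 FPKM in d/d, a 2.83-fold lower level and a log2 ratio of -1.43 on FPKM + 1. Of all 16263 genes, 4.02% had a ratio that low or lower. Without the pseudocount the log2 fold was -1.50, with a counting-error interval of -1.76 to -1.25. It was the least abundant of the 10 in both libraries. In f/f 4072 genes had a higher FPKM than Neat1, and in d/d 8793 did. Neat1 (ENSMUSG00000092274) lies on the minus strand of chr19:5824708-5845478 in GRCm38, the assembly also called mm10. It has 4 annotated transcripts, from 711 to 20771 nt. The short and the long isoform share their start, and only the long one builds paraspeckles. Gene-level FPKM does not show which of them the fragments came from.

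Malat1 was the more abundant nuclear RNA, at 88.2 FPKM in f/f and 63.2 FPKM in d/d. This was a 1.40-fold lower level, with a log2 ratio of -0.47 and a counting-error interval of -0.63 to -0.33 on the plain log2 fold. Malat1 exceeded Neat1 by 2.62-fold in f/f and by 5.31-fold in d/d. Malat1 (ENSMUSG00000092341) lies on the minus strand of chr19:5795690-5802672 and has 4 annotated transcripts, the longest of 6983 nt. The unclassified model Gm37376 covers part of it on the opposite strand and was 16.6 and 17.6 FPKM. Without knowledge of the strand, fragments of the overlap cannot be told apart.

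Malat1 and the long isoform of Neat1 share a 3′ end that is cut by RNase P rather than polyadenylated in the usual way. The cut end is held by a triple helix of U-rich stretches and an A-rich stretch. The ends are shown because this element sets the pair apart from the snoRNA hosts in sequence. They are written as DNA from the GENCODE M21 transcripts, at chr19:5795982-5796048 for Malat1 and chr19:5824708-5824781 for Neat1, both on the minus strand of GRCm38. Capitals mark the longest run of letters shared by the last 100 bases of Neat1 and the last 400 of Malat1, of 16 bases, and the longest run shared downstream of it, of 11 bases. The windows start shortly before the first of these runs and need not hold the whole element.
Malat1 3′ element: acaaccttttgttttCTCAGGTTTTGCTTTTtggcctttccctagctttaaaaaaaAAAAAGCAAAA
Neat1 3′ element: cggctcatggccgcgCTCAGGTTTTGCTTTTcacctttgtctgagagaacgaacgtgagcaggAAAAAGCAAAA
In Neat1 the last A is the last base of the 20771 nt transcript, while the annotated Malat1 transcript runs on for 292 bases. Both runs in this order, at most 100 bases apart, were found in the longest transcript of 2 of the 10155 annotated long noncoding RNA genes, Malat1 and Neat1, from which the runs were taken. The strand of the RNA alone was searched.

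The letters GGACT are the core of the sequence context in which the Mettl3 and Mettl14 complex methylates adenosine. The longest Malat1 transcript held 9 matches, or 1.29 per kilobase, and that of Neat1 held 23, or 1.11 per kilobase. Over the longest transcripts of 9776 long noncoding RNA genes of at least 300 nt, the median density was 0.984 per kilobase and 69.1% held the motif at least once. Gas5 held 3 matches, Snhg1, Snhg6, Snhg8 and Epb41l4aos held 1 each, and Snhg3, Snhg5 and Snhg12 held 0. Of those genes 46.1% had a GGACT density at or above that of Neat1 and 40.6% at or above that of Malat1. A match does not show a methylated base, and the strand of the RNA alone was searched. The densest stretches are printed with the motif in capitals, from chr19:5801418-5801568 and chr19:5844955-5845137, minus strand, each with 3 matches.
Malat1: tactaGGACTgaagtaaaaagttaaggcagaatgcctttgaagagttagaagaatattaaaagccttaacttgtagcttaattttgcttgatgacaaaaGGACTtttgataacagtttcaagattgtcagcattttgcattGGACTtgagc
Neat1: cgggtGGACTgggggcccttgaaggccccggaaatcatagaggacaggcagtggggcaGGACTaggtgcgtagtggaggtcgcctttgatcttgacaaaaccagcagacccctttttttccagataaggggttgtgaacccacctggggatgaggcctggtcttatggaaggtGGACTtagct

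The 8 snoRNA hosts covered a wide range of levels, and 7 of the 8 were below 0 on the log2 ratio, against 50.8% of all genes. Their summed FPKM came to 1737 for f/f against 1287 for d/d. The median log2 ratio was -0.50, and 2 of the 8 were at least 2-fold lower, against 8.28% of all genes.

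Gas5, the growth-arrest gene that carries the most snoRNAs of the 10 and whose RNA was described in human cells as a decoy for the glucocorticoid receptor, was the most abundant member. It was 687 FPKM in f/f and 432 FPKM in d/d, a 1.59-fold lower level with a log2 ratio of -0.67. Its counting-error interval was -0.74 to -0.60. Gas5 made up 39.5% of the summed host FPKM in f/f against 33.6% in d/d. The gene (ENSMUSG00000053332) lies on the plus strand of chr1:161034422-161038539. Of its 25 annotated transcripts, 20 retain an intron.

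Snhg1, the host of Snord22 and its neighbours, was 211 FPKM in f/f and 101 FPKM in d/d. This 2.08-fold lower level, a log2 ratio of -1.05, put it just past the 2-fold rule. Snhg12, which carries snoRNAs of both classes, was 66.3 and 32.3 FPKM, a 2.06-fold lower level with a log2 ratio of -1.02. Both stand close to the threshold, with counting-error intervals of -1.19 to -0.92 for Snhg1 and -1.25 to -0.83 for Snhg12. Snhg5, the host of Snord50a and Snord50b, was just outside it at 47.6 and 25.1 FPKM, 1.89-fold lower with a log2 ratio of -0.89. Snhg1 (ENSMUSG00000108414) lies on chr19:8723475-8726443, Snhg12 (ENSMUSG00000086290) on chr4:132308623-132311024, both on the plus strand, and Snhg5 (ENSMUSG00000097195) on chr9:88521050-88522929, on the minus strand. With the FPKM of d/d rescaled to the reference genes, Snhg1 had -0.96 and Snhg12 -0.93, and 1 member, Neat1, stayed past the rule.

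Smaller differences were seen for Epb41l4aos, Snhg8 and Snhg3. Epb41l4aos, on the other strand from the nearby coding gene Epb41l4a, was 138 FPKM in f/f and 109 FPKM in d/d, with a log2 ratio of -0.33. Snhg8, the host of Snora24, was 169 and 136 FPKM, with a log2 ratio of -0.31. Snhg3, the host of the U17 snoRNAs Snora73a and Snora73b, was 92.3 and 83.4 FPKM, with a log2 ratio of -0.14. The counting-error interval of Snhg3, with the shortest transcript assumed, ran from -0.31 to 0.02 and so included 0. A longer transcript would give a narrower interval, which was not computed. The intervals of Epb41l4aos and Snhg8 stayed below 0, at -0.49 to -0.19 and -0.42 to -0.20. Epb41l4aos (ENSMUSG00000087590) lies on chr18:33794892-33795986, plus strand. Snhg8 (ENSMUSG00000104960) lies on chr3:123507552-123508404 and Snhg3 (ENSMUSG00000085241) on chr4:132348014-132353686, both minus strand.

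Snhg6, the host of Snord87, was the exception. It was 327 FPKM in f/f and 368 FPKM in d/d, a 1.12-fold higher level with a log2 ratio of 0.17 and a counting-error interval of 0.09 to 0.25. Its share of the summed host FPKM was 18.8% in f/f against 28.5% in d/d. Gas5 exceeded Snhg6 by 2.10-fold in f/f and by 1.18-fold in d/d. Snhg6 (ENSMUSG00000098234) lies on the minus strand of chr1:9941959-9944118, and overlaps Mcmdc2 on the opposite strand, which was 0.392 and 0.438 FPKM.

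The order of the levels was nearly kept. In f/f it ran from Gas5 through Snhg6, Snhg1, Snhg8, Epb41l4aos, Snhg3, Malat1, Snhg12 and Snhg5 to Neat1. In d/d 3 genes had another place, since Snhg1 stood behind Snhg8 and Epb41l4aos. Snhg8 was 0.801 times the FPKM of Snhg1 in f/f and 1.35 times in d/d. The span from Gas5 to Neat1 was 20.4-fold in f/f and 36.3-fold in d/d. With no replicates, it cannot be said which neighbours in this order differ beyond the spread between animals. How well the libraries captured each RNA, among them Malat1 and the long Neat1 isoform with their unusual 3′ ends, was not tested.

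The snoRNAs inside the hosts were almost all listed at 0. GENCODE M21 places 30 snoRNA models on the same strand within the 8 hosts, 10 of them in Gas5, 8 in Snhg1, 5 in Snhg12, 2 each in Snhg3 and Snhg5 and 1 each in the others. They are 60 to 205 nt long. Snord80 of Gas5 and Snora16a of Snhg12 are each present as a pair of overlapping models, so distinct snoRNAs are fewer than models. A further Gas5 model bears the microRNA name Mir5117. Snora73b in Snhg3 was the single one above 0, at 57.8 FPKM in f/f and 98.1 FPKM in d/d, a log2 ratio of 0.75. This was higher in d/d, while its host Snhg3 was slightly lower. Over all snoRNA models, 7 of 1507 were above 0 in either library, or 0.464%, so the snoRNAs were hardly measured in these libraries. An FPKM of a model this short is uncertain. Of the 30 models, 26 lie wholly within an exon of an annotated transcript of the host, so fragments of a retained intron can count toward the host.

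Examples of the box C/D class are printed with the C box letters TGATGA and the D box letters CTGA nearest the 3′ end in capitals. They show what the host introns carry. All come from GENCODE M21 transcripts, and each was listed at 0 in both libraries. Snord47 of Gas5 lies at chr1:161038082-161038158 on the plus strand, Snord50a of Snhg5 at chr9:88521529-88521600 on the minus strand, Snord87 of Snhg6 at chr1:9942463-9942549 on the minus strand and Snord99 of Snhg12 at chr4:132310691-132310764 on the plus strand.
Snord47: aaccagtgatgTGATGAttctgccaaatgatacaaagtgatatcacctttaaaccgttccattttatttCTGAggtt
Snord50a: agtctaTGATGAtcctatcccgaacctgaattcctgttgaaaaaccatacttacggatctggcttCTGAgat
Snord87: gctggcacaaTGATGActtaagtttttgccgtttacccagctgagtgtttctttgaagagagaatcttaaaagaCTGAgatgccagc
Snord99: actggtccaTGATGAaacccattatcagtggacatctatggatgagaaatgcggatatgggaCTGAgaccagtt

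The U17 snoRNAs Snora73a and Snora73b belong to the box H/ACA class and take part in ribosomal RNA processing. They are shown because one has a value and the other is listed at 0, although they are near copies. The pair is 205 nt long each and differs at 7 bases, an identity of 96.6%, and the differing bases are in capitals. Such copies can exchange fragments in the authors' estimate, so the split between them is uncertain. Snora73b lies at chr4:132352322-132352526 and Snora73a at chr4:132352775-132352979, both on the minus strand.
Snora73b: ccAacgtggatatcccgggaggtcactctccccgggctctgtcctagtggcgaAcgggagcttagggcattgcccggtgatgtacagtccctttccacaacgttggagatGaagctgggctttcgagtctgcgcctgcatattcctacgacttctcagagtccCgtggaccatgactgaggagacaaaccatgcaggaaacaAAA
Snora73a: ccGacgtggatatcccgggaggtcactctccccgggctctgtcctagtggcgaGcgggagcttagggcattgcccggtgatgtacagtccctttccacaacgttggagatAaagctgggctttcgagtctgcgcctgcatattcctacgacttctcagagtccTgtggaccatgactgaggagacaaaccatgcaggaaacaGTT

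The starts of the host genes were searched for the letters TATA and for a run of pyrimidines. Some noncoding snoRNA hosts are known as TOP genes, whose RNAs begin with a run of pyrimidines, as those of ribosomal protein genes do. RefSeq starts on GRCm38.p6 were at hand for 7 members, and Neat1, Snhg6 and Epb41l4aos had none. The windows below run from 45 bases before the annotated start to 25 bases from it on, 70 bases in all. Capitals mark the letters TATA between positions -45 and -16 and the longest run of at least 5 pyrimidines that begins within 15 bases before or 11 bases after the start. Gas5 has a second RefSeq start upstream, whose window holds neither.
Gas5 (chr1:161035121-161035190, plus strand): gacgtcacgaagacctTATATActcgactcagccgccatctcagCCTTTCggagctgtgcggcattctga
Snhg1 (chr19:8723442-8723511, plus strand): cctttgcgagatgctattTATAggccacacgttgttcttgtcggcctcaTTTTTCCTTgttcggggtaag
Snhg3 (chr4:132353662-132353731, minus strand): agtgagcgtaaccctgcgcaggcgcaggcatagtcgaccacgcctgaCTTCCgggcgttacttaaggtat
Snhg5 (chr9:88522873-88522942, minus strand): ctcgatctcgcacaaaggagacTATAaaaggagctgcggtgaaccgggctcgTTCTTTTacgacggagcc
Snhg8 (chr3:123508312-123508381, minus strand): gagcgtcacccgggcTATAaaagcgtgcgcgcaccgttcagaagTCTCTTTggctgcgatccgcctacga
Snhg12 (chr4:132308633-132308702, plus strand): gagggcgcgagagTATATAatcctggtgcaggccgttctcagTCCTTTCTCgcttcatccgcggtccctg
Malat1 (chr19:5802648-5802717, minus strand): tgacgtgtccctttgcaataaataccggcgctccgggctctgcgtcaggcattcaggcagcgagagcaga
The letters TATA were present in 5 of the 6 hosts with an entry, all but Snhg3, against 6.72% of 32851 RefSeq start windows. They began between positions -32 and -23. The pyrimidine run was present in 6 of 6 hosts, but also in 44.9% of all windows. It began at position -1 in Gas5 and Snhg8 and -3 in Snhg12. In Snhg3, Snhg1 and Snhg5 it began after the annotated start, at positions 3, 5 and 8, so those annotated RNAs do not begin with it. The longest runs, of 9 bases, were those of Snhg1 and Snhg12. Malat1 held neither feature. TATA was searched on the strand of the gene alone, since it reads the same on both, and matches may overlap, as in Gas5 and Snhg12. Both motifs were chosen after these windows were seen, so the counts describe these hosts and are no test. A host was counted if any of its windows held the motif, while the shares are over windows. Among 16 other noncoding hosts with an entry, 3 held TATA.

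The genes beside or over the members had log2 ratios from -3.76 to 1.62. Prss12, a serine protease gene 955 bp from Snhg8 on the other strand, was 15.7 FPKM in f/f and 0.233 FPKM in d/d, a 67.2-fold lower level, while Snhg8 was 1.24-fold lower. Epb41l4a, 341 bp from Epb41l4aos on the other strand, was 2.73 and 10.5 FPKM, a 3.84-fold higher level, while Epb41l4aos was 1.26-fold lower. Slc3a2, the amino acid transporter heavy chain whose gene lies 106 bp from Snhg1, was 116 and 88.2 FPKM, with a log2 ratio of -0.39 beside the -1.05 of Snhg1. Trnau1ap, a selenocysteine tRNA-binding protein gene 739 bp from Snhg12, was 56.6 and 56.7 FPKM. Rcc1, the exchange factor of Ran, overlaps Snhg3 on the same strand and was 39.5 and 32.2 FPKM. Zbtb37 overlaps Gas5 on the other strand and was 3.47 and 3.26 FPKM. Frmd8, 4224 bp from Neat1, was 19.4 and 17.5 FPKM (Rcc1, Zbtb37 and Frmd8 named after their values were seen). Such overlaps, and matches of at least 200 nt at 95% identity between Snhg5 and 2 other noncoding genes, leave the split of fragments uncertain.

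**Figure D2:**
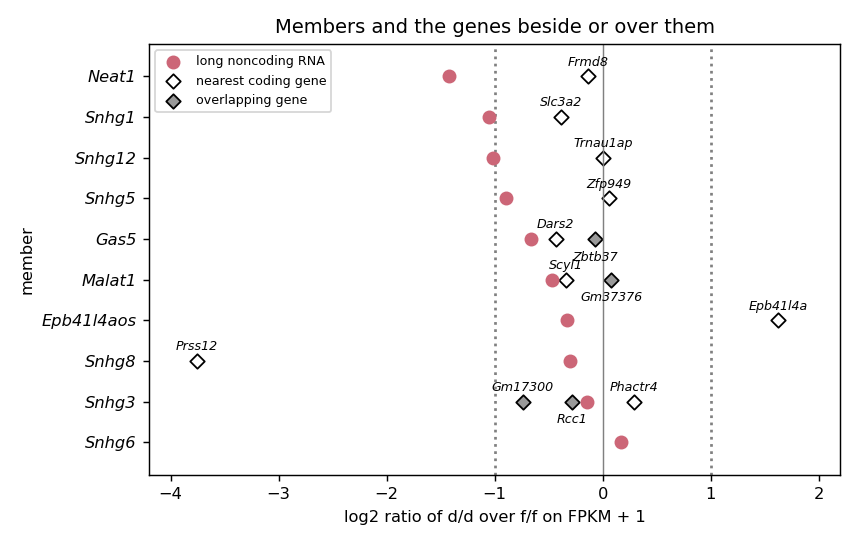
Log2 ratio (d/d to f/f, on FPKM + 1) for each member (circle) and for the nearest protein-coding gene (open diamond) and overlapping genes (grey diamond) that reached 1 FPKM, with dotted lines at a 2-fold difference. Prss12 beside Snhg8 lies at -3.76 and Epb41l4a beside Epb41l4aos at 1.62, while the circles lie between -1.43 and 0.17.

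Noncoding snoRNA hosts outside the 10 were also mostly lower in d/d. By annotation, 18 further noncoding genes that contain a snoRNA reached 1 FPKM, and 17 of them had a log2 ratio below 0. Their median was -0.40, with 3 at least 2-fold lower and 0 at least 2-fold higher. The 217 protein-coding snoRNA hosts had a median of -0.09, with 60.8% below 0. The 729 long noncoding RNA genes other than the members, which include those 18, had a median of -0.17, with 57.6% below 0. Of these 729, 17.7% were at least 2-fold lower and 12.9% at least 2-fold higher. The levels of the hosts share a library and its scaling, so these genes are not independent of one another.

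**Figure D3:**
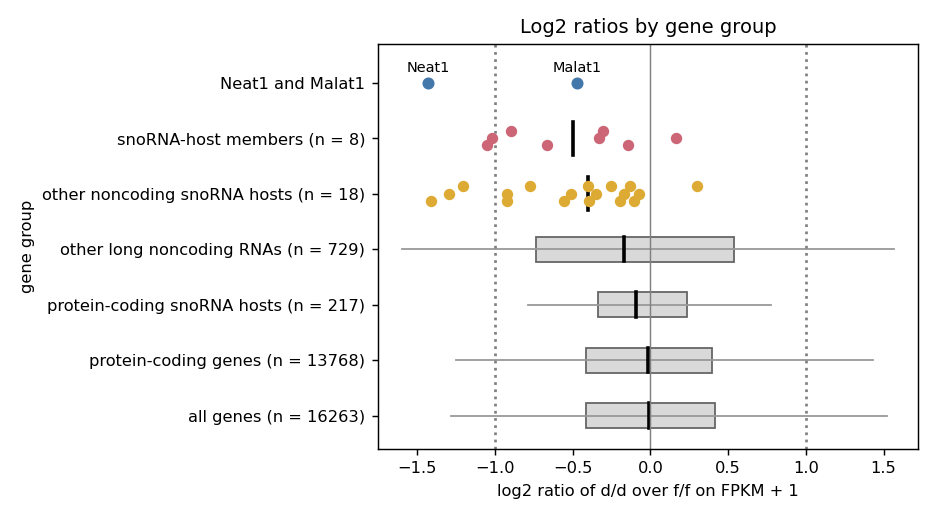
Log2 ratios (d/d to f/f, on FPKM + 1) by gene group. Points are single genes, black bars are medians, boxes run from the lower to the upper quartile and grey lines from percentile 5 to percentile 95, and dotted lines mark a 2-fold difference. The snoRNA-host members and the other noncoding hosts have medians of -0.50 and -0.40, and all genes have -0.01. The other long noncoding RNAs include the other noncoding hosts.

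Among a list of 13 further snoRNA-host long noncoding RNAs named from general knowledge, 12 were found and 10 reached 1 FPKM. Of these 10, 8 are also among the 18 above, all but Snhg10 and Snhg20, so that their values are largely the same data. No gene passed the 2-fold rule in either direction, and 9 of the 10 were below 0. Zfas1, the host of Snord12 family members, was 163 FPKM in f/f and 85.5 FPKM in d/d, a log2 ratio of -0.92. Snhg18 was 71.0 and 48.0 FPKM, and Snhg4, summed over its pair of rows, was 40.9 and 23.6 FPKM. The log2 ratios of Snhg10, Snhg15, Dancr, Snhg17, Snhg16 and Snhg14 were -0.42, -0.40, -0.35, -0.25, -0.17 and -0.13. Snhg20 was the exception at 26.7 and 45.1 FPKM, a log2 ratio of 0.74. Snhg9 was listed at 0 in both libraries and Snhg11 stayed below 1 FPKM, at 0.155 and 0.0232.

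Genes of proteins that act with these RNAs are given next by their RNA levels, and no protein was measured. The background is that of all genes, with 50.8% below 0, 8.28% at least 2-fold lower and 10.2% at least 2-fold higher. Of 17 genes for proteins of snoRNP particles and their assembly, 13 were below 0, with a median log2 ratio of -0.25. In this list 1 was at least 2-fold lower and 0 were at least 2-fold higher. The one past the rule was Dkc1, the pseudouridine synthase of box H/ACA particles and itself a snoRNA host, at 107 FPKM in f/f and 49.3 FPKM in d/d. Its partner Nhp2 was 145 and 179 FPKM. The box C/D core protein Nop58 was 162 and 122 FPKM and Snu13 was 141 and 108 FPKM.

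None of 19 paraspeckle protein genes passed the 2-fold rule, 13 were below 0, and their median log2 ratio was -0.24. Nono, one of the core paraspeckle proteins that bind Neat1, was 203 and 147 FPKM, and Hnrnpk and Tardbp were 413 and 433 FPKM and 310 and 337 FPKM. None of 24 nuclear speckle protein genes passed the rule either, with 15 below 0 and a median of -0.17. The splicing factors Srsf1 and Srsf2 were 269 and 216 FPKM and 236 and 189 FPKM. In the list of 13 genes of 3′ end cleavage and related steps, Pop7, a protein of RNase P, was past the rule at 28.4 and 76.8 FPKM, with a log2 ratio of 1.41, and 12 were not, with 7 below 0 and a median of -0.12.

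None of 17 nonsense-mediated decay genes passed the 2-fold rule, 11 were below 0, and their median log2 ratio was -0.11. Magoh, a core protein of the exon junction complex, was 130 and 180 FPKM, and its partner Eif4a3 was 65.9 and 63.6 FPKM. None of 13 genes that control the translation of TOP RNAs passed it (7 below 0, median -0.07, and 0.02 after rescaling to the reference genes). Of 30 coding snoRNA hosts 21 were below 0, with a median of -0.19, and Dkc1 alone was past the 2-fold rule. Rpl13a and Rps3, ribosomal protein genes that carry snoRNAs, were 4869 and 3967 FPKM and 3107 and 2518 FPKM. Other ribosomal protein genes of this list were far lower, such as Rpl7a at 11.1 and 8.24 FPKM and Rpl21 at 12.1 FPKM in both libraries. The reason for this wide spread of levels was not tested.

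**Figure D4:**
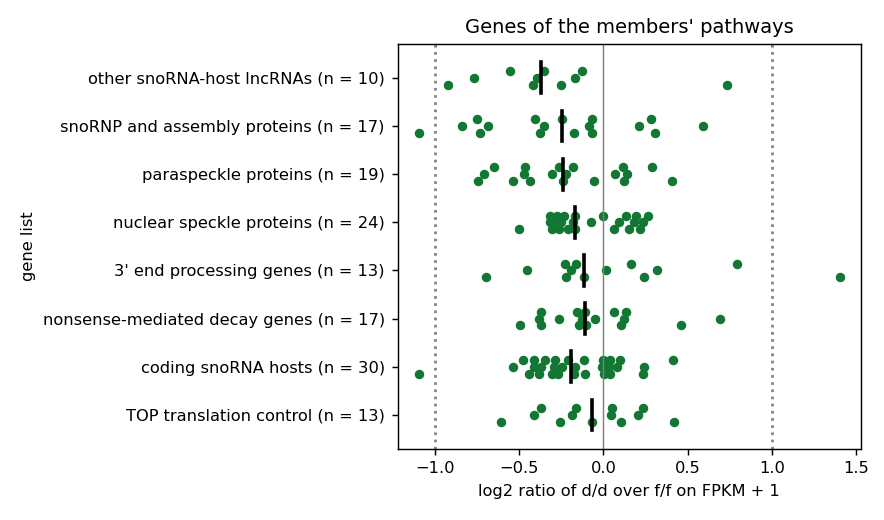
Log2 ratios (d/d to f/f, on FPKM + 1) for the genes of 8 lists that share a pathway with the members, 1 point per gene at 1 FPKM or more, with black bars for the medians and dotted lines at a 2-fold difference. Medians lie between -0.37 for the other snoRNA-host long noncoding RNAs and -0.07 for translation control, and the points past a line are Dkc1, in both lists that hold it, and Pop7.

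The cellular markers of the libraries differed strongly. Of 9 epithelial markers, 8 were higher in d/d by the 2-fold rule, and their summed FPKM was 371 in f/f against 2170 in d/d. All 8 stromal, 6 endothelial, 7 smooth muscle and 6 gland markers were below 0. At least 2-fold lower were 5 of the stromal markers, with sums of 3818 and 2175, 4 of the endothelial, with sums of 320 and 146, and 3 of the smooth muscle markers, with sums of 4909 and 3190. Of the gland markers 4 were at least 2-fold lower, with sums of 1821 and 5.01, and Prss28 and Spink1 were listed at 0 in d/d. The 9 leukocyte markers went both ways, 4 at least 2-fold higher and 3 at least 2-fold lower, with sums of 238 and 146. In whole tissue, fewer cells of a type and less RNA per cell cannot be told apart, and the part of cell composition in the differences of the 10 RNAs was not tested. The 9 mitochondrial transcripts and the 12 reference genes had median log2 ratios of 0.13 and -0.09, with 0 past the 2-fold rule in either list. The reference gene Polr2a was just short of the rule, at 23.6 FPKM in f/f and 11.3 FPKM in d/d, a log2 ratio of -0.996. Of the 12 reference genes 6 were below 0. Of 5 histone genes at 1 FPKM or more, 0 passed the 2-fold rule and 4 were below 0, with H1f2 just short of the rule at -0.974.

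**Figure D5:**
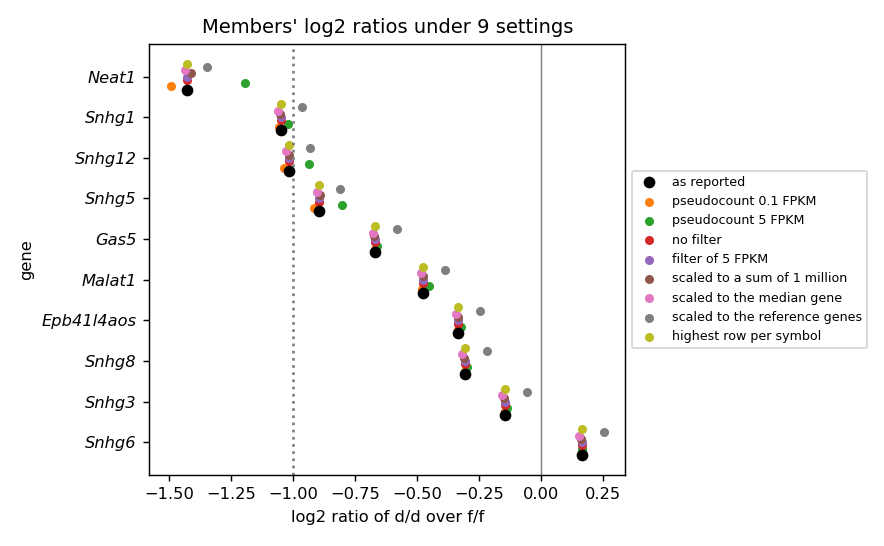
Log2 ratio (d/d to f/f) for each member as reported and under 8 other settings of pseudocount, filter, scaling and row handling, with a dotted line at a 2-fold lower level. Neat1 stays left of the line in every setting shown, Snhg1 and Snhg12 lie beside it, and Snhg6 is the one gene right of 0.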

How the data were processed

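RNA-seq libraries of whole uterus, 1 for Mettl14 f/f and 1 for d/d, were made from total RNA with the TruSeq RNA kit, per the labels' protocols. The authors deposited FPKM per gene. HISAT2 2.2.1, Cufflinks 2.2.1 and mm10 are named in the submitters' processing notes. The annotation release is not given in the sources used here, and neither counts nor confidence limits were used.

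Rows that share a symbol were summed (55483 rows, 55363 genes). Log2 ratios compare d/d with f/f on FPKM + 1 over the whole table, which understates the change of low genes. Counts cover genes that reached 1 FPKM in either library, and at least 2-fold means a log2 ratio of 1 or more in size. Fragment depth was fitted to the values of genes with 1 transcript of at least 2000 nt, whose FPKM times length steps by single fragments. In f/f 66.1% of 962 low values, and in d/d 62.7% of 1012, lay within 0.1 of a whole number. Full length stood in for effective length, so depth is approximate. Counting-error intervals are 95% intervals of the log of a ratio of Poisson counts.

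Positions, transcripts and gene types come from GENCODE M21 on GRCm38, where 55137 of the 55483 IDs were found. Whether the authors used that release is not known. Start windows come from RefSeq, GRCm38.p6. Genes that RefSeq types as protein-coding were left out of the noncoding groups. Scripts ran in Python 3.11 with pandas 2.3.3 and were tested on simulated data.

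The members and the 20 gene lists were chosen with earlier results of these data known. Lists were matched by symbol, GENCODE ID or RefSeq synonym. Besides the members and Mettl14, the rule for named genes took up to 5 genes past 2-fold and the 3 highest by mean FPKM from each list. Not all of these are printed. Of the 29 snoRNA symbols listed for the hosts, 14 matched, so the snoRNAs were taken by coordinates.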

Additional observations from a re-analysis of the deposited data

How the results depend on the processing

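The 8 alternatives were pseudocounts of 0.1 and 5 FPKM, no filter, a filter of 5 FPKM, 3 rescalings and keeping the highest row per symbol. Under all 8, 9 of the 10 members stayed below 0 and 0 were at least 2-fold higher. The share of all genes below 0 ran from 22.9% with no filter to 51.6% after rescaling to the median gene. The share at least 2-fold lower ran from 2.43% with no filter to 11.7% with a pseudocount of 0.1 FPKM. Neat1 was past the 2-fold rule under each, from -1.49 to -1.19. The count of members at least 2-fold lower was 1 after rescaling to the reference genes, where Snhg1 (-0.96) and Snhg12 (-0.93) no longer passed, and with a pseudocount of 5 FPKM Snhg12 (-0.94) did not pass. With that pseudocount 869 of 16263 genes were at least 2-fold higher and 539, or 3.31%, lower, since a larger pseudocount shrinks ratios of low genes. With a pseudocount of 0.1 FPKM 2037 of 16263 genes were at least 2-fold higher. The other members ranged from -0.92 (Snhg5) to 0.25 (Snhg6). Rescaling moved the median of all genes from -0.01 to at most 0.07. No paired analysis was possible because each genotype has 1 library. Leaving out a replicate was not possible either. With no replicate, the spread between animals is unknown. With the shortest transcript assumed, the counting-error interval includes 0 for Snhg3 alone among the 10.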

Other observations

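Other long noncoding RNAs of the uterus went both ways. A list of nuclear and regulatory RNAs held 14 further such genes at 1 FPKM or more, with a median log2 ratio of -0.31. Of these, 4 were at least 2-fold lower in d/d, against 8.28% of all genes. At least 2-fold higher were 3, against 10.2% of all genes. H19, an imprinted RNA that carries a microRNA, was 15.9 FPKM in f/f and 5.15 FPKM in d/d. Meg3 and Rian, maternally expressed RNAs of one imprinted cluster, were 12.5 and 5.17 FPKM and 22.1 and 7.69 FPKM. Pvt1, a neighbour of Myc, was 13.2 and 4.87 FPKM. Terc, the telomerase RNA, had 2.50 FPKM in d/d and is listed at 0 in f/f. Rmst was 0.499 and 2.16 FPKM, so that Terc and Rmst reached 1 FPKM in d/d alone. Mir22hg was 8.20 and 17.4 FPKM, at the threshold with a log2 ratio of 1.00 (Rmst and Mir22hg named after their values were seen). Xist, the RNA of the inactive X chromosome and the most abundant of this list in f/f, was 85.3 and 62.7 FPKM. Norad, listed as 2900097C17Rik, was 66.2 and 68.0 FPKM.

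Among the 18 noncoding snoRNA hosts outside the 10, those at least 2-fold lower were Rian, Gm26512 and 2410006H16Rik. The last is an abundant gene model, at 480 FPKM in f/f and 207 FPKM in d/d, a log2 ratio of -1.20 and more than that of Gas5 (2410006H16Rik and Gm26512 named after their values were seen). Gm26512 was close to the 1 FPKM filter, at 2.07 FPKM in f/f and 0.252 FPKM in d/d. The letters TATA before the start, seen in 5 of 6 hosts among the 10, were present in 3 of 16 of these other hosts with a RefSeq start.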
